A study of Mus musculus with 6 samples.

Results

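The 34 genes described here encode the postsynaptic density and the adhesion molecules that hold synapses together: scaffolds, calcium-calmodulin kinase II (CaMKII), other spine signalling proteins, neuroligins, neurexins and leucine-rich-repeat adhesion proteins. They were chosen by name, and all 34 were found among the 54393 genes of a deposited table of hippocampal mRNA levels. The table compares the hippocampus of untreated C57BL/6 mice carrying the genotype miR-301a-/- (3 libraries, labelled 1-1, 2-2 and 3-1) with that of untreated wild-type C57BL/6 mice (3 libraries, labelled 1-1, 2-1 and 2-2), at an age of 6 to 8 weeks. How the allele was made, the sex of the mice and whether a library came from 1 animal or a pool are not given in the sources used here, and each p-value below therefore rests on library-to-library spread, part of which can be technical. Mir301, the microRNA gene itself, had a value of 0 in every library of both genotypes and so could not be used to check the labels.

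The postsynaptic density is a protein mesh under the membrane of excitatory spines. MAGUK proteins such as PSD-95 bind glutamate receptors and adhesion molecules at the membrane, SAPAP proteins tie the MAGUKs to Shank proteins deeper in the mesh, and Homer proteins link Shank to metabotropic glutamate receptors. CaMKII, activated by calcium and calmodulin, is needed for long-term potentiation at hippocampal synapses. Postsynaptic neuroligins and LRRTM proteins bind presynaptic neurexins across the cleft.

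miR-301a lowers messages that pair with its seed, bases 2 to 8, which it shares with miR-130a and miR-130b. The mature sequences, from RefSeq on GRCm38.p6, are shown with the seed in capitals, because the genotype removes the first of them.
mmu-miR-301a-3p: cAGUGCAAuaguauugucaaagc
mmu-miR-130a-3p: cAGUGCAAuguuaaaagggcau
mmu-miR-130b-3p: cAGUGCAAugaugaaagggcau

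The heptamer TTGCACT, which pairs with that seed, was present in the longest annotated 3' UTR of 5 of the 34 genes (14.7%), namely Homer3, Kalrn, Lrrtm2, Nlgn3 and Shank2. Among the 12763 tested genes with an annotated 3' UTR, 1607 (12.6%) held it on the sense strand. The longest 3' UTR of the 34 genes had a median of 2243 nt, against 1419 nt for all tested genes, and no matching for length was made. In none of the 34 was the heptamer in the longest 3' UTR followed by A, a form found in 2.59% of tested genes; over any annotated 3' UTR, 2 of 34 (5.88%, Camk2d and Kalrn) held that form, against 2.82% of tested genes. The windows around 4 of these sites are given in the direction of the message on GRCm38, with the heptamer in capitals, so that the values of these genes can be read beside them.
Homer3, chr8:70293221-70293249, plus strand: cagctgtctctgagctTTGCACTgtgtag
Kalrn, chr16:33971175-33971203, minus strand: taggatagcccatcaaTTGCACTgggtga
Nlgn3, chrX:101325211-101325239, plus strand: tcctgtgtgtgctgtcTTGCACTcattgg
Shank2, chr7:144424397-144424425, plus strand: agagagttcctgtactTTGCACTtttccc

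No member differed between the genotypes past the threshold, a Benjamini-Hochberg adjusted p under 0.05 over the 14708 genes tested with limma. The count was 0 of 34 in either direction, against 16 genes (0.109%) in the whole table, 8 of them higher (0.0544%) and 8 lower (0.0544%). Adjusted p-values of the members ran from 0.832 to 0.984. At an unadjusted p under 0.05, Shank2 and Nrxn3 were higher in knockout libraries and no member was lower; these were 2 of 34 members (5.88%), against 841 tested genes (5.72%), of which 2.61% were higher and 3.11% lower. The values of 4 members (11.8%) lay higher in every knockout library than in every wild-type library (Shank2, Dlg2, Nrxn3 and Lrrtm2), against 838 tested genes (5.70%), and 0 lay lower in every one, against 834 tested genes (5.67%). Log2 fold changes, knockout over wild type on the log2(value + 1) scale, ran from −0.18 for Dlg1 to 0.27 for Homer3. Their median was 0.03, beside −0.00383 over all tested genes, and 21 of 34 (61.8%) were above 0, beside 48.8% of tested genes. The number above 0 depended on single libraries: it was 29 without wild type 1-1 and 16 without wild type 2-1.

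A p above the threshold does not show that levels were alike, so the interval of each difference is given. For 32 of 34 members (94.1%) the 95% confidence interval from limma lay within 0.5 of 0 on the log2 scale, as it did for 73.5% of tested genes. All 34 members lay above the median level of tested genes, and these shares were not matched for level. The exceptions were Homer3, with an interval of −0.12 to 0.65, and Camk2d, with −0.67 to 0.47. The median spread between libraries of a genotype (residual SD on the log2 scale) was 0.121 for the members, and 0.101 for the 6204 tested genes whose mean levels lay in the members' range.

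**Figure D1:**
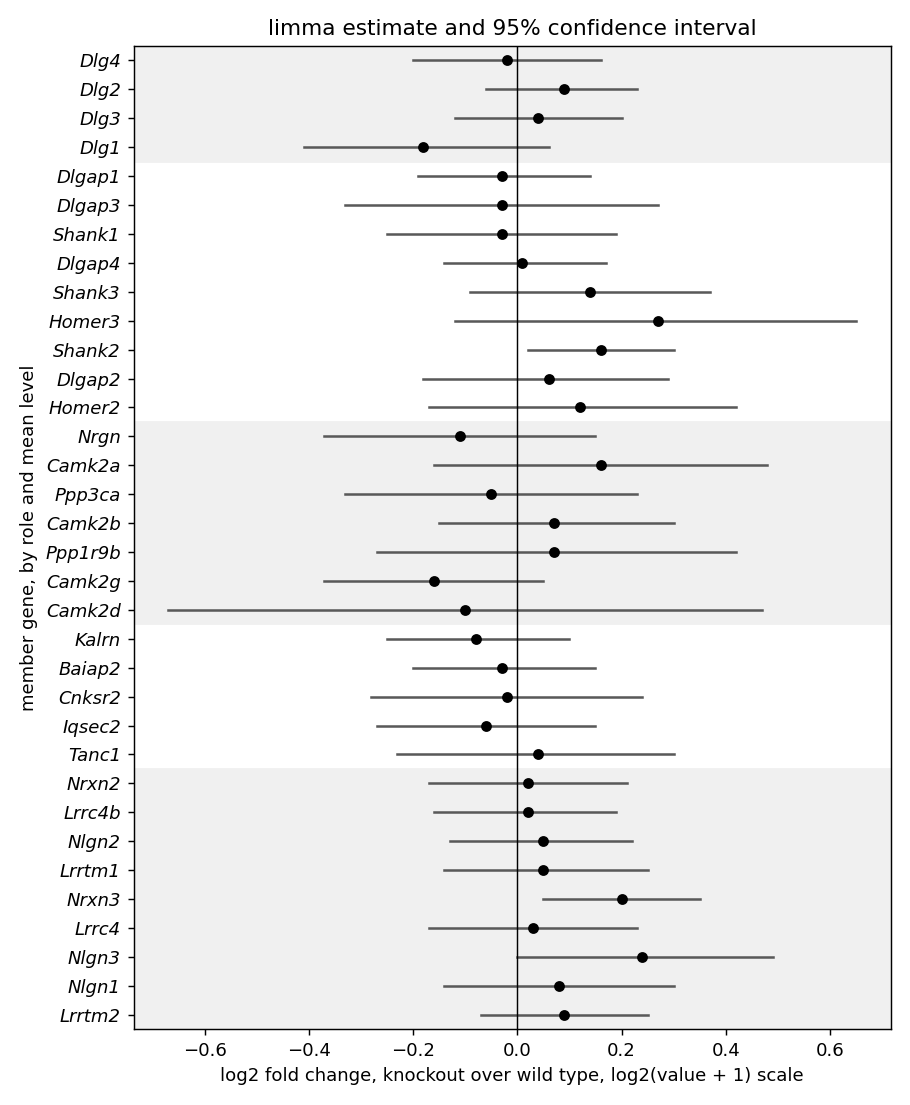
Log2 fold change of each member gene, knockout over wild type on the log2(value + 1) scale, with its 95% confidence interval from limma (n = 3 libraries per genotype). The intervals of Shank2 and Nrxn3 lie above 0 before adjustment over 14708 genes, the other 32 include 0, and Camk2d has the widest.

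The members were well expressed. All 34 passed the filter on low values (at least 3 libraries with a value no lower than 1) and all lay above 10.8, the median level of tested genes. Values are FPKM-like, that is, scaled by gene length and library depth, so levels of different genes can be set side by side. Mean levels over the 6 libraries ran from 13.7 for Lrrtm2 to 1012.7 for Nrgn. By mean level Nrgn ranked 39 and Camk2a 48 among tested genes, and Ppp3ca ranked 93.

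**Figure D2:**
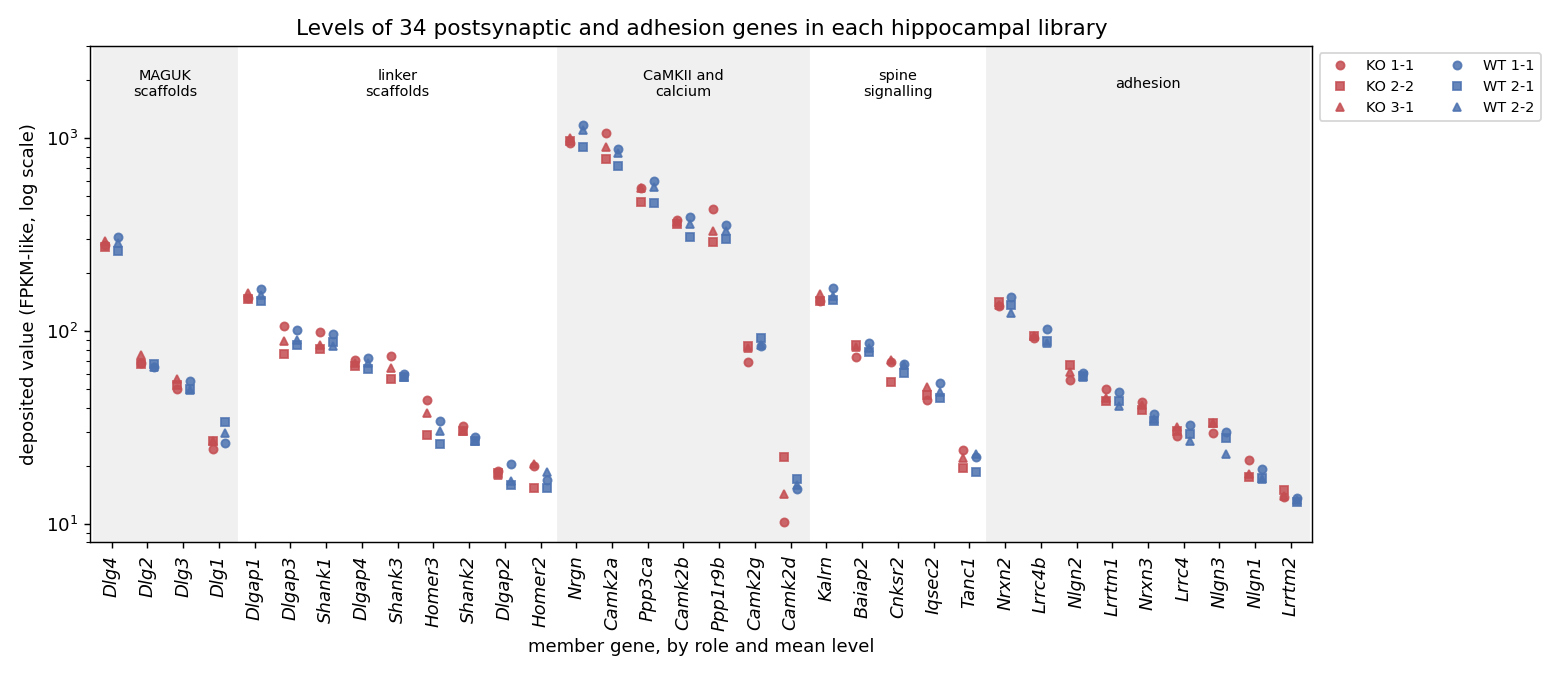
Deposited value (FPKM-like, log axis) of the 34 member genes in each of the 6 libraries, 3 knockout (red, left of each pair) and 3 wild type (blue, right), with genes grouped by role. Levels span from about 10.2 for Camk2d in knockout 1-1 to 1171.2 for Nrgn in wild type 1-1, and the genotypes overlap for 30 of the 34 genes.

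The members' joint level differed between libraries of the same genotype. The summed value of the 34 genes was 5288, 4719.9 and 5115 in knockout 1-1, 2-2 and 3-1, and 5429, 4512 and 5045 in wild type 1-1, 2-1 and 2-2. Of the 34, 13 were highest in wild type 1-1 and 13 were lowest in wild type 2-1, while 11 were highest and 6 lowest in knockout 1-1. The library totals over all genes did not run in this order: they were 628334, 553879 and 577673 in the knockout libraries and 575212, 590956 and 614538 in the wild-type libraries. Upper limits on depth, estimated from the lowest values, were 26900000, 16900000 and 19700000 reads in knockout 1-1, 2-2 and 3-1. In wild type 1-1, 2-1 and 2-2 they were 27800000, 20200000 and 19600000 reads. Both libraries labelled 1-1 thus had the highest limits and the highest member sums. Wild type 2-1 had the lowest member sum but not the lowest limit. Whether the members' joint level follows depth was not tested.

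Markers of hippocampal subfields and of other cell types also differed between libraries. The summed level of 12 CA3 and CA2 markers was 1007.7, 737 and 763 in knockout 1-1, 2-2 and 3-1, against 764, 681 and 707 in wild type 1-1, 2-1 and 2-2. Of these 12 genes, 12 had a log2 fold change above 0 and none passed the threshold. The 9 CA1 markers in the table summed to 230.4, 245 and 316 in knockout 1-1, 2-2 and 3-1. In wild type 1-1, 2-1 and 2-2 they summed to 362, 284 and 334. Log2 fold changes were below 0 for 8 of 9 (median −0.40), and none passed the threshold. At an unadjusted p under 0.05 in limma, 3 of 9 were lower and 0 higher, beside 3.11% and 2.61% of tested genes. The sum of 10 dentate granule cell markers was lowest in knockout 1-1, at 140.0, beside 217 in knockout 2-2 and 218 in knockout 3-1; wild-type libraries lay between 181 and 216. The 9 oligodendrocyte markers summed to 3356, 2250.5 and 3151 in knockout 1-1, 2-2 and 3-1, against 2715, 3188 and 4061 in wild type 1-1, 2-1 and 2-2, and those of 5 erythroid genes to 441, 215 and 228 in knockout 1-1, 2-2 and 3-1, against 295, 159 and 222 in wild type 1-1, 2-1 and 2-2. The 8 choroid plexus genes, of which 3 passed the filter on low values, summed to 21.1, 17.9 and 9.32 in knockout 1-1, 2-2 and 3-1. Their sums were lower in wild type 1-1, 2-1 and 2-2, at 7.47, 7.54 and 8.89. Most of this gap was in Ttr, at 12.2, 10.7 and 2.74 in knockout 1-1, 2-2 and 3-1. Ttr was at 1.68, 1.41 and 2.57 in wild type 1-1, 2-1 and 2-2. The other genes past the filter, Kl and Folr1, averaged 4.58 and 1.32 in knockout, against 3.89 and 1.29 in wild type. All 6 ependymal genes had log2 fold changes above 0 (median 0.30), as had all 5 erythroid genes (median 0.34). Those of all 9 oligodendrocyte markers were below 0 (median −0.17). No gene of the 12 marker lists passed the threshold. The 10 pan-neuronal markers summed to 3346, 2818 and 3136 in knockout 1-1, 2-2 and 3-1. In wild type 1-1, 2-1 and 2-2 they summed to 3121, 2951 and 3074, so both extremes were knockout libraries. All 10 passed the filter on low values. Among them Snap25, a presynaptic fusion protein gene, was at 817 to 1038 in knockout libraries and 896 to 956 in wild-type libraries. The part of these markers in the members' values was not tested, and in bulk tissue fewer cells of a type and less RNA per cell cannot be told apart.

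**Figure D3:**
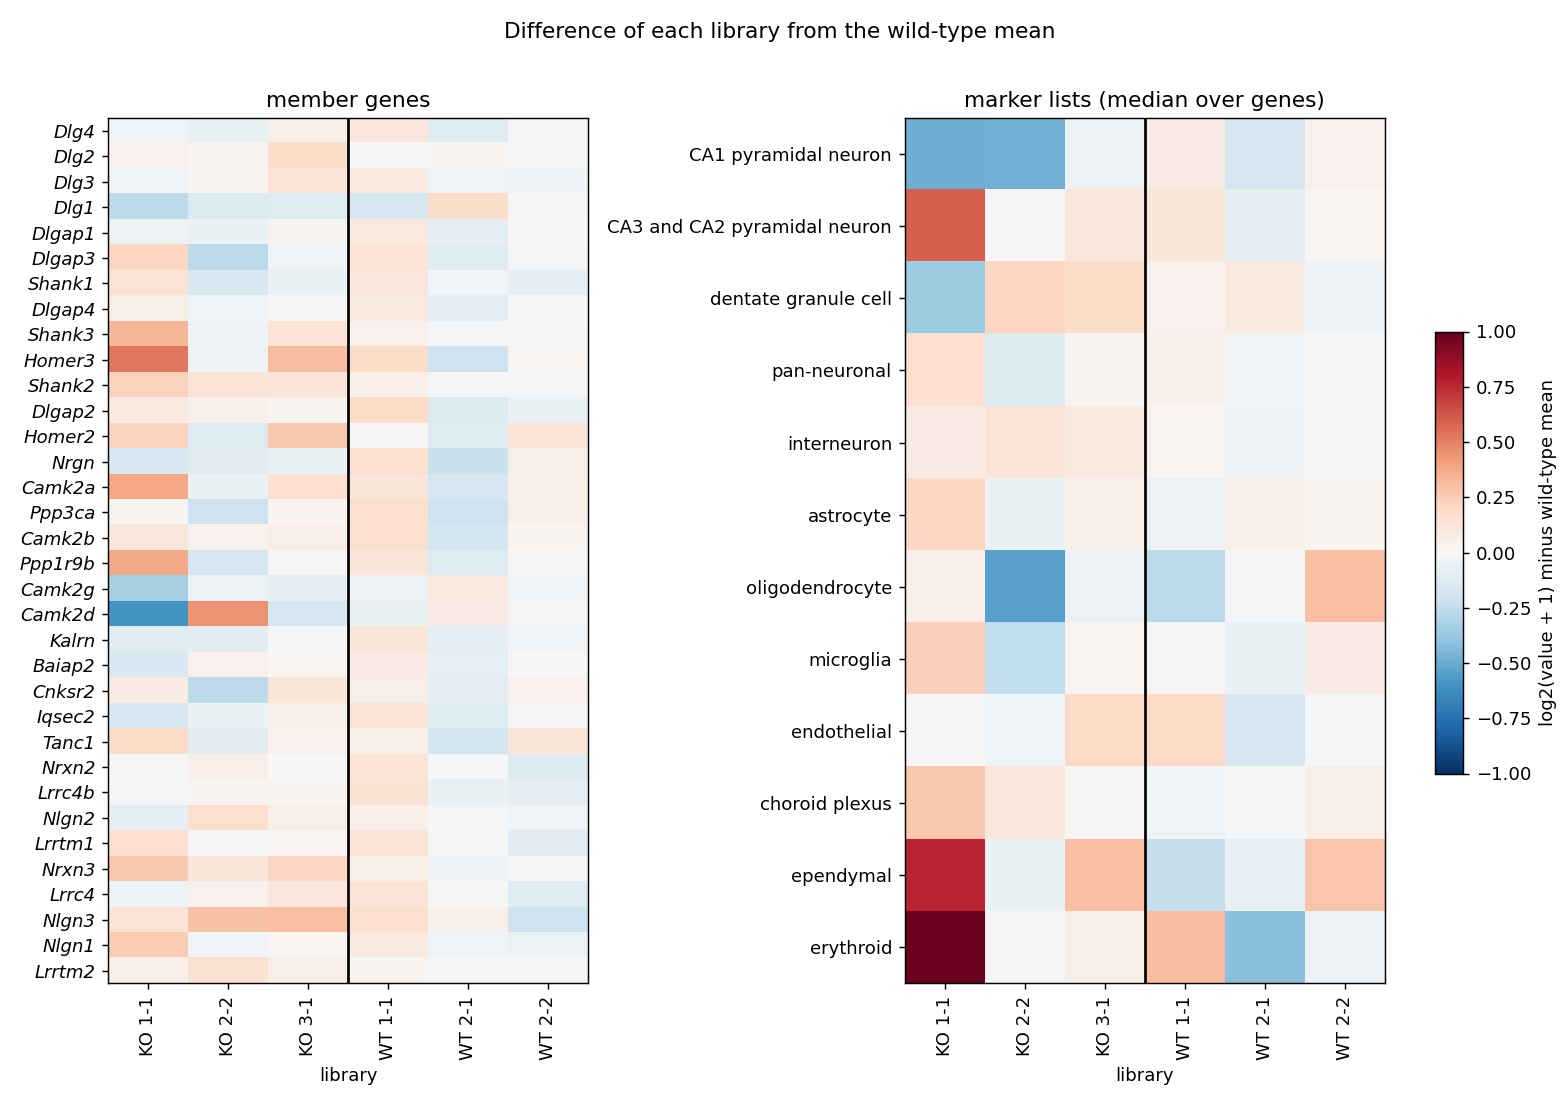
Log2(value + 1) minus the wild-type mean for each member gene (left) and the median over each marker list (right), in 3 knockout and 3 wild-type libraries. Knockout 1-1 has the highest values of Homer3 (0.53) and Camk2a (0.39) and the lowest of Camk2d (−0.60). Its CA3 and CA2 marker median is the highest (0.60). Its CA1 marker median (−0.49) is close to that of knockout 2-2 (−0.48). In knockout 2-2 Homer3 is at −0.05, Camk2a at −0.07 and Camk2d at 0.45.

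The MAGUK scaffolds were led by Dlg4, which encodes PSD-95, the main scaffold of the excitatory postsynaptic density (ENSMUSG00000020886.17, GRCm38 chromosome 11, 70016942 to 70047522). Dlg4 had values of 277, 271 and 292 in knockout 1-1, 2-2 and 3-1, against 306, 260.3 and 285 in wild type 1-1, 2-1 and 2-2. The knockout values all fell inside the wild-type range, and the log2 fold change was −0.02 (95% interval −0.20 to 0.16, limma adjusted p = 0.983).

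Dlg2, which encodes PSD-93, was at 67.8, 67.3 and 74.9 in knockout 1-1, 2-2 and 3-1, against 65.2, 67.1 and 65.2 in wild type 1-1, 2-1 and 2-2. Its groups did not overlap, but the gap between the lowest knockout and the highest wild-type library was smaller than the spread within either genotype (log2 fold change 0.09, adjusted p = 0.893). Dlg3, which encodes SAP102, a MAGUK prominent early in synapse development, averaged 52.9 ± 3.16 in knockout and 51.4 ± 2.87 in wild type (SD, n = 3 each). Dlg1, which encodes SAP97, was at 24.4, 26.8 and 26.9 in knockout 1-1, 2-2 and 3-1, against 26.1, 33.6 and 29.4 in wild type 1-1, 2-1 and 2-2. Wild type 2-1 held the highest Dlg1 value, and the groups overlapped through wild type 1-1 (log2 fold change −0.18, adjusted p = 0.893). The order Dlg4, Dlg2, Dlg3 and Dlg1 held for the mean levels, with Dlg4 at 4.15 times Dlg2 and 10.1 times Dlg1.

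The SAPAP proteins, encoded by the Dlgap genes, bind the guanylate kinase domain of PSD-95 on one side and Shank on the other. Dlgap1 was the most abundant, at 150.6 ± 5.93 in knockout and 154 ± 11.0 in wild type, followed by Dlgap3 at 90.2 ± 14.7 and 91.6 ± 8.65 (SD, n = 3 each). Dlgap4 averaged 68.3 ± 2.34 in knockout and 67.8 ± 4.58 in wild type, and Dlgap2 18.3 ± 0.396 and 17.7 ± 2.40 (SD, n = 3 each). The 4 log2 fold changes lay between −0.03 and 0.06. Dlgap3 varied most between libraries, with 106, 76.2 and 88.8 in knockout 1-1, 2-2 and 3-1 and 101, 84.0 and 89.8 in wild type 1-1, 2-1 and 2-2.

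Shank proteins are the deeper scaffolds of the density, binding SAPAP, Homer and the actin machinery. Shank2 (ENSMUSG00000037541.21, chromosome 7, 144001928 to 144424494) was at 32.2, 30.1 and 30.1 in knockout 1-1, 2-2 and 3-1, against 28.3, 27.0 and 26.9 in wild type 1-1, 2-1 and 2-2. Every knockout library was above every wild-type library, with a log2 fold change of 0.16 (SE 0.06, 95% interval 0.02 to 0.30), an unadjusted p of 0.029 and an adjusted p of 0.833 in limma. Without each library in turn its log2 fold change was 0.13 to 0.18, and the adjusted p stayed at 0.811 or above.

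Shank3, mutated in Phelan-McDermid syndrome in humans, was at 73.8, 56.6 and 64.4 in knockout 1-1, 2-2 and 3-1, against 60.0, 57.8 and 57.5 in wild type 1-1, 2-1 and 2-2. Knockout 1-1 held the highest value and knockout 2-2 the lowest, so the groups overlapped (log2 fold change 0.14, adjusted p = 0.893), and it was 0.05 without knockout 1-1 and 0.24 without knockout 2-2. Shank1 averaged 87.8 ± 9.63 in knockout and 89.2 ± 6.40 in wild type (SD, n = 3 each; log2 fold change −0.03).

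Of the 9 families, Shank was the one in which the share of the most abundant gene did not overlap between genotypes. Shank1 made up 48.2%, 48.0% and 47.2% of the summed Shank values in knockout 1-1, 2-2 and 3-1, against 52.2%, 50.8% and 49.8% in wild type 1-1, 2-1 and 2-2. The difference of −3.11 percentage points had a two-sided exact permutation p of 0.1, the smallest that 3 against 3 libraries can give, and 0.675 after adjustment over the 9 families compared. Such a share does not depend on how libraries were scaled, and the difference stayed between −3.65 and −2.49 percentage points without each library in turn.

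Homer proteins join Shank to metabotropic glutamate receptors and to intracellular calcium channels. Homer3 (ENSMUSG00000003573.15, chromosome 8, 70282827 to 70294361) had the highest log2 fold change of the members, 0.27 (SE 0.16, adjusted p = 0.893). Its values were 43.8, 28.8 and 37.4 in knockout 1-1, 2-2 and 3-1, against 34.1, 25.8 and 30.4 in wild type 1-1, 2-1 and 2-2. Knockout 2-2 lay below wild type 1-1 and 2-2, so the groups overlapped, and the log2 fold change was 0.13 without knockout 1-1 and 0.42 without knockout 2-2 (adjusted p = 0.864). Homer2 was at 19.8, 15.3 and 20.5 in knockout 1-1, 2-2 and 3-1, against 16.9, 15.3 and 18.5 in wild type 1-1, 2-1 and 2-2 (log2 fold change 0.12, adjusted p = 0.927). Exons of Homer3 overlap those of Ddx49 on the opposite strand, and whether reads were counted by strand is not given.

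CaMKII is a multi-subunit enzyme, built in forebrain neurons mainly of the alpha and beta forms. Camk2a, the alpha form (ENSMUSG00000024617.16, chromosome 18, 60925618 to 60988152), was at 1060.5, 773 and 902 in knockout 1-1, 2-2 and 3-1, against 879, 718 and 840.0 in wild type 1-1, 2-1 and 2-2. Knockout 1-1 was the highest and wild type 2-1 the lowest, with overlap between the others (log2 fold change 0.16, 95% interval −0.16 to 0.48, adjusted p = 0.918). Its log2 fold change was 0.05 without knockout 1-1 and 0.27 without knockout 2-2.

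Camk2b, the beta form, which also binds actin, was at 377, 358 and 368 in knockout 1-1, 2-2 and 3-1, against 390.4, 306 and 356 in wild type 1-1, 2-1 and 2-2. The knockout libraries were close together and lay inside the wild-type range (log2 fold change 0.07, adjusted p = 0.949). Camk2a was 2.81, 2.16 and 2.45 times Camk2b in knockout 1-1, 2-2 and 3-1, against 2.25, 2.35 and 2.36 times in wild type 1-1, 2-1 and 2-2. The wild-type ratios fell within the knockout range, and the ratio did not differ beyond its spread (exact permutation p = 0.5, two-sided).

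The minor forms varied the other way. Camk2g, the gamma form, was at 68.6, 83.3 and 81.0 in knockout 1-1, 2-2 and 3-1, against 83.2, 92.2 and 84.6 in wild type 1-1, 2-1 and 2-2 (log2 fold change −0.16, adjusted p = 0.893). Knockout 2-2 and wild type 1-1 were within 0.1 of each other, and the groups overlapped only there. Camk2d, the delta form (ENSMUSG00000053819.16, chromosome 3, 126596302 to 126846326), had the widest spread of any member. It was at 10.2, 22.2 and 14.2 in knockout 1-1, 2-2 and 3-1, against 15.2, 17.0 and 15.9 in wild type 1-1, 2-1 and 2-2. Its coefficient of variation was 39.4% in knockout and 5.62% in wild type, and the lowest and the highest of the 6 values were both knockout libraries. Without knockout 1-1 its log2 fold change turned to 0.15, and without knockout 2-2 it was −0.38, against −0.10 with all libraries (adjusted p = 0.972). Camk2d made up 0.673%, 1.80% and 1.04% of the summed Camk2 values in knockout 1-1, 2-2 and 3-1, and 1.11%, 1.50% and 1.22% in wild type 1-1, 2-1 and 2-2.

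**Figure D4:**
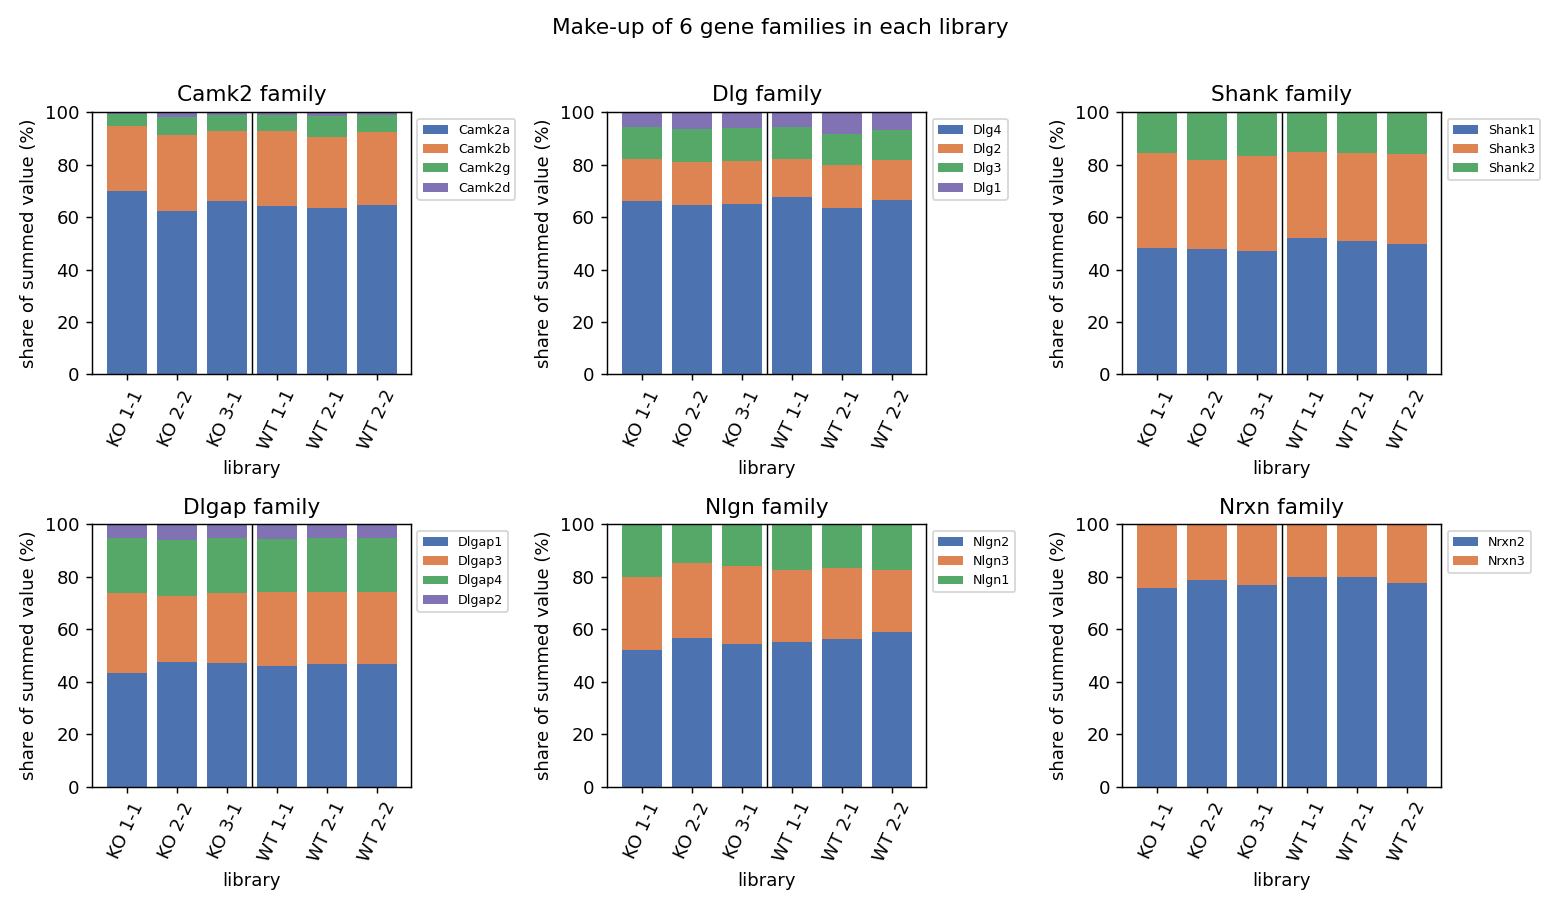
Share (percent) of each gene in the summed FPKM-like values of 6 families, in 3 knockout and 3 wild-type libraries. Camk2a holds 62.5% to 69.9% and Dlg4 63.4% to 67.7% of their families in every library, and the Shank1 share is 47.2% to 48.2% in knockout and 49.8% to 52.2% in wild type.

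Nrgn encodes neurogranin, a small protein that holds calmodulin in spines until calcium enters (ENSMUSG00000053310.11, chromosome 9, 37544492 to 37552904). It was at 946, 969 and 998 in knockout 1-1, 2-2 and 3-1, against 1171.2, 896 and 1095.2 in wild type 1-1, 2-1 and 2-2. All knockout values lay between the lowest and the highest wild-type values (log2 fold change −0.11, 95% interval −0.37 to 0.15, adjusted p = 0.925). Single libraries set its size: it was −0.22 without wild type 2-1 (limma adjusted p = 0.937) and −0.03 without wild type 1-1 (adjusted p = 0.992).

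Ppp3ca, the catalytic subunit of the calcium-dependent phosphatase calcineurin, was at 549, 463 and 549 in knockout 1-1, 2-2 and 3-1, against 598, 462 and 556 in wild type 1-1, 2-1 and 2-2 (log2 fold change −0.05, adjusted p = 0.974). Ppp1r9b encodes spinophilin, which targets protein phosphatase 1 to spines, and was at 426, 289.8 and 328 in knockout 1-1, 2-2 and 3-1, against 355, 298 and 327 in wild type 1-1, 2-1 and 2-2. Both extremes of Ppp1r9b were knockout libraries (log2 fold change 0.07, adjusted p = 0.964), and the value was −0.08 without knockout 1-1 and 0.20 without knockout 2-2.

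The spine signalling genes showed small differences. Kalrn, a guanine nucleotide exchange factor that promotes spine growth, was at 142, 142 and 154 in knockout 1-1, 2-2 and 3-1, against 168, 144 and 151 in wild type 1-1, 2-1 and 2-2 (log2 fold change −0.08, 95% interval −0.25 to 0.10, adjusted p = 0.923). Baiap2, which encodes the membrane-curving protein IRSp53, averaged 80.2 ± 5.88 in knockout and 81.8 ± 4.53 in wild type (SD, n = 3 each). Iqsec2, an exchange factor for ARF6, averaged 47.1 ± 3.77 in knockout and 49.0 ± 4.45 in wild type (SD, n = 3 each). The scaffold gene Cnksr2 averaged 64.3 ± 8.97 in knockout and 64.8 ± 4.05 in wild type (SD, n = 3 each), with knockout 2-2 the lowest library at 54.0. Tanc1, a scaffold that binds PSD-95, averaged 21.9 ± 2.35 in knockout and 21.3 ± 2.45 in wild type (SD, n = 3 each). These 5 log2 fold changes lay between −0.08 and 0.04, and 1 of 5 was above 0.

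All 9 adhesion genes had log2 fold changes above 0, from 0.02 to 0.24 with a median of 0.05, and none passed the threshold. The split of the members into 5 roles was made with the values known, so this count carries no test. Leaving out each library in turn gave 6 to 9 of 9, the lowest without wild type 2-2.

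Among the neurexins, presynaptic partners of neuroligins and LRRTM proteins, Nrxn3 had the smallest p-value of any member. Nrxn3 (ENSMUSG00000066392.11, chromosome 12, 88722876 to 90334935) was at 42.9, 38.7 and 41.2 in knockout 1-1, 2-2 and 3-1, against 37.2, 34.1 and 35.1 in wild type 1-1, 2-1 and 2-2. Every knockout library was above every wild-type library, with a log2 fold change of 0.20 (SE 0.06, 95% interval 0.05 to 0.35), an unadjusted p of 0.0174 and an adjusted p of 0.832 in limma. Leaving out each library in turn gave 0.17 to 0.24. Nrxn2 was 3.58 times as abundant on average, at 138 ± 3.87 in knockout and 136 ± 13.2 in wild type (SD, n = 3 each; log2 fold change 0.02). It made up 77.1% ± 1.39 of the summed values of both genes in knockout and 79.3% ± 1.25 in wild type (SD, n = 3 each; exact permutation p = 0.2, two-sided).

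Neuroligins differ by synapse in textbook accounts: Nlgn1 is enriched at excitatory synapses, Nlgn2 at inhibitory synapses, and Nlgn3 occurs at both. Nlgn3 (ENSMUSG00000031302.16, chromosome X, 101299168 to 101325963) was at 29.6, 33.1 and 33.3 in knockout 1-1, 2-2 and 3-1, against 30.0, 27.8 and 23.1 in wild type 1-1, 2-1 and 2-2. Knockout 1-1 lay just below wild type 1-1, so the groups overlapped, and the log2 fold change was 0.24 (SE 0.10, unadjusted p = 0.0531, adjusted p = 0.875 in limma). Leaving out each library in turn gave 0.14 to 0.32, the lowest without wild type 2-2 and the highest without wild type 1-1. Its level was between 0.997 and 1.41 times that of wild type by the 95% interval. Nlgn2 was at 55.4, 66.2 and 61.3 in knockout 1-1, 2-2 and 3-1, against 60.7, 58.0 and 57.7 in wild type 1-1, 2-1 and 2-2, and both its extremes were knockout libraries (log2 fold change 0.05, adjusted p = 0.955). Nlgn1 averaged 18.9 ± 2.13 in knockout and 17.8 ± 1.14 in wild type (SD, n = 3 each; log2 fold change 0.08), with knockout 1-1 the highest at 21.3. Nlgn2 was 2.59, 3.81 and 3.41 times Nlgn1 in knockout 1-1, 2-2 and 3-1, and 3.18, 3.38 and 3.38 times in wild type 1-1, 2-1 and 2-2, so the wild-type ratios lay within the knockout range. Nlgn3 made up 27.9%, 28.4% and 29.6% of the summed neuroligin values in knockout 1-1, 2-2 and 3-1, against 27.3%, 27.0% and 23.6% in wild type 1-1, 2-1 and 2-2. These shares did not overlap, and the log2 ratio of Nlgn2 to Nlgn3 differed by −0.20 with the smallest exact permutation p possible, 0.1 (two-sided). The share of Nlgn2, the measure set for each family, overlapped (exact permutation p = 0.3, 0.675 after adjustment over the 9 families). The ratio was an alternative to that share, and its p was not adjusted over the families.

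The leucine-rich-repeat proteins organise excitatory synapses from the postsynaptic side, LRRTM proteins by binding neurexins. Lrrtm2 (ENSMUSG00000071862.3, chromosome 18, 35209003 to 35215024) was the lowest member, at 13.8, 14.9 and 14.0 in knockout 1-1, 2-2 and 3-1, against 13.6, 13.0 and 13.2 in wild type 1-1, 2-1 and 2-2. Its groups did not overlap, with knockout 1-1 just above wild type 1-1 (log2 fold change 0.09, 95% interval −0.07 to 0.25, adjusted p = 0.901). Lrrtm1 averaged 45.9 ± 3.37 in knockout and 44.2 ± 3.71 in wild type (SD, n = 3 each). Lrrc4, which encodes the netrin-G ligand NGL-2, averaged 30.1 ± 1.73 in knockout and 29.5 ± 2.66 in wild type, and Lrrc4b, encoding NGL-3, 93.4 ± 1.36 and 92.5 ± 8.73 (SD, n = 3 each). Exons of Lrrtm2 overlap those of Ctnna1 on the opposite strand, and in all 6 members share exonic bases with another tested gene.

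The 5 members with the heptamer had log2 fold changes of 0.27 for Homer3, 0.24 for Nlgn3, 0.16 for Shank2, 0.09 for Lrrtm2 and −0.08 for Kalrn. So 4 of 5 were above 0 with a median of 0.16, beside 17 of 29 and a median of 0.02 for the members without it. Over all tested genes with a 3' UTR, the medians were 0.0196 with and −0.0076 without the heptamer. None of the 5 passed the threshold, and the groups of Homer3, Nlgn3 and Kalrn overlapped. Over any annotated 3' UTR, Camk2d also held the heptamer, with a log2 fold change of −0.10. The heptamer followed by A was held there by Camk2d and Kalrn, both below 0. The contrast between members with and without the heptamer was not tested.

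Other genes of the synapse, named in 5 lists, gave the same count of calls. Of 42 tested postsynaptic scaffold and signalling genes outside the 34, 0 passed the threshold in either direction, with 23 above 0. The highest by level were Nsmf, which encodes the synapse-to-nucleus messenger Jacob, at 351 ± 69.6 in knockout and 311 ± 11.2 in wild type, and the dynein light chain Dynll1 at 292 ± 33.5 and 286 ± 31.2 (SD, n = 3 each). The 33 calcium, calmodulin and phosphatase genes also held 0 calls in either direction, with 15 above 0. Calmodulin gene Calm2 averaged 1373 ± 84.9 in knockout and 1444 ± 99.3 in wild type (SD, n = 3 each). Hpca, which encodes the calcium sensor hippocalcin, was at 1893, 993 and 1237 in knockout 1-1, 2-2 and 3-1, against 1324, 809 and 1256 in wild type 1-1, 2-1 and 2-2. It was highest in knockout 1-1 and lowest in wild type 2-1, the libraries at the extremes for Camk2a.

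Of 55 further synaptic adhesion genes, 0 were called in either direction and 27 were above 0, with a median log2 fold change of −0.01. Clstn1, encoding calsyntenin-1, averaged 252 ± 11.7 in knockout and 256 ± 14.4 in wild type (SD, n = 3 each), and Ptprs, a presynaptic receptor phosphatase, 139 ± 9.13 and 126 ± 7.42 (SD, n = 3 each). Inhibitory postsynapse genes held 0 calls of 19 in either direction, with 12 above 0, and Insyn1, encoding a protein of the inhibitory postsynapse, averaged 96.2 ± 3.79 in knockout and 97.3 ± 7.18 in wild type (SD, n = 3 each). Spine actin genes held 0 calls of 38 in either direction, with 18 above 0, and Cfl1, encoding cofilin, averaged 516 ± 60.9 in knockout and 535 ± 31.4 in wild type (SD, n = 3 each). At an unadjusted p under 0.05 in limma, 2 of the scaffold genes were higher, 1 calcium gene was lower, 2 adhesion genes were higher and 1 lower, 1 inhibitory gene was higher and 1 spine actin gene was lower. Of all tested genes, 2.61% were higher and 3.11% lower by the same measure.

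In the authors' deposited table all 34 members had a p-value of 1 both before and after adjustment. The share of all genes with that value was not counted, so it is not read as a result about the members. The authors' deposited table gave log2 fold changes of 0.29 for Homer3, 0.25 for Nlgn3, 0.21 for Nrxn3 and −0.19 for Dlg1.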

How the data were processed

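Poly(A) RNA from 6 hippocampal libraries was sequenced, 3 per genotype, per the labels. The authors deposited 1 value per gene and library. The deposited comparison adds a log2 fold change and p-values, before and after adjustment, from a test the file does not name. The unit is not named either; the deposited values were read as FPKM-like, because the lowest ones, multiplied by exonic length, pile up in broad peaks near a step and its double in each library. The smallest step gives upper limits on depth of 16900000 to 27800000 reads per library. Read counts were not used, so no counting interval was computed. The submitters' processing notes list HISAT2 2.1.0, HTSeq, bcl2fastq and mm10 with no roles, and the design text lists other programs. Gene positions, exonic lengths and 3' UTRs were read from the GENCODE M21 annotation (GRCm38).

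Log2(value + 1) was compared between genotypes with limma (version 3.58.1, R 4.3.3; two-sided, empirical Bayes with a trend), keeping genes at 1 or above in 3 libraries or more; the fit was tested on simulated data. Fold changes on this scale understate those of low genes. Family shares used exact permutation tests (scipy 1.17.1). All members were eligible to be named, and of each list the 3 genes of highest mean level; some eligible genes are not reported here. The members and lists were chosen with earlier results of these data known. Alternatives were the pseudocount, the filter, the scaling, the trend, a replicate block, each library left out, and the form of the 3' UTR site.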

Additional observations from a re-analysis of the deposited data

How the results depend on the processing

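No member was called under any of the 11 alternatives to the limma fit. The genes called over the whole table, 16, became 4 without the filter on low values, 0 with the titles' code as a replicate block (0 of 34 members there too, and 14 members above 0), and 4 to 17 without each library in turn. The block rests on the codes 1-1 and 2-2, which both genotypes carry. Deviations of same-code libraries from their genotype means correlated at −0.099 and −0.061 across all tested genes. Over those genes the codes gave no sign of pairing, but the members were not tested for it by themselves. Of the 34, 11 were highest in knockout 1-1 and 13 in wild type 1-1, against 3 in knockout 2-2 and 0 in wild type 2-2. With the block, the log2 fold change turned negative for Dlg3 (−0.02), Homer2 (−0.02), Dlgap4 (−0.04), Camk2b (−0.02), Lrrc4 (−0.01), Lrrc4b (−0.02) and Tanc1 (−0.06). These signs are those of the genotype difference within codes 1-1 and 2-2 alone.

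Leaving out each library in turn changed the sign of 21 members, none of them called. Their log2 fold changes ran from −0.004 to 0.08 for Dlg3, −0.08 to 0.04 for Dlg4, −0.11 to 0.04 for Shank1, −0.08 to 0.02 for Dlgap1, −0.01 to 0.16 for Dlgap2, −0.15 to 0.08 for Dlgap3, −0.04 to 0.06 for Dlgap4, −0.02 to 0.16 for Camk2b, −0.38 to 0.15 for Camk2d, −0.0062 to 0.13 for Nlgn1, −0.01 to 0.11 for Nlgn2, −0.05 to 0.09 for Nrxn2, −0.0027 to 0.12 for Lrrtm1, −0.03 to 0.09 for Lrrc4, −0.03 to 0.09 for Lrrc4b, −0.15 to 0.03 for Ppp3ca, −0.08 to 0.20 for Ppp1r9b, −0.07 to 0.03 for Baiap2, −0.09 to 0.10 for Cnksr2, −0.06 to 0.11 for Tanc1 and −0.12 to 0.01 for Iqsec2. The other 13 kept their direction in these 6 fits, though not their size: the range was −0.26 to −0.09 for Dlg1, 0.04 to 0.11 for Dlg2, 0.05 to 0.25 for Homer2, −0.21 to −0.08 for Camk2g, 0.06 to 0.11 for Lrrtm2 and −0.12 to −0.01 for Kalrn. Differences in family share are given as knockout minus wild type, in percentage points. Without each library in turn they ran from −1.77 to 0.388 for Dlg4 and −1.24 to 0.979 for Dlgap1. For Lrrtm1 they ran from −1.54 to 0.410 and for Lrrc4b from −0.565 to 0.270. With all libraries, the log2 ratio of Dlgap1 to Dlgap3 differed by 0.0018. For miR-301a sites in the longest 3' UTR, 18 of 34 members (52.9%) held the hexamer TGCACT, against 37.4% of tested genes with a 3' UTR. The heptamer followed by A was held there by 0 members, against 2.59%. With any annotated 3' UTR, 6 members (17.6%) held the heptamer, against 14.0%, and 2 (5.88%) the heptamer followed by A, against 2.82%. These shares were not matched for 3' UTR length. Count-based tests were not run, since the table holds no counts.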
